A study of Homo sapiens with 2 samples.

Results

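The seed family of hsa-miR-130a-3p, hsa-miR-130b-3p, hsa-miR-301a-3p and hsa-miR-454-3p was followed through these 4 mature miRNAs, chosen by name among 2565 human miRNAs on a Toray 3D-Gene miRNA array and written below without the species prefix. RNA came from 22Rv1, a human prostate carcinoma line in wide use that expresses the androgen receptor, grown in RPMI1640 medium. The control group was 22Rv1 left untreated for 48 h and the treated group was 22Rv1 given 25 µM luteolin, a plant flavone, also for 48 h. Each group was 1 sample on 1 array and each miRNA was read from 1 spot, so no replicate error exists, no test between conditions could be run, and the number of arrays limits the precision of every value below. All differences describe this pair of arrays, and errors written as ± are standard errors (SE) from repeated spots within an array, which leave out the variation between cultures and between arrays.

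A miRNA finds its targets mainly through its seed, bases 2 to 8 from its 5′ end, which pair with matching sites in messenger RNAs and lower their translation and stability. Members of a seed family can therefore act on overlapping sets of transcripts. MiR-301a-3p was of particular interest because a response to luteolin has been reported for it elsewhere. The direction and the cells of that report were not compared with the values below. The members and the lists below were chosen with earlier results of these data known.

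RefSeq sequences (GRCh38.p14) were matched for 3 of the 4 members. They are shown with the other miRNAs that have the same seed to let the shared 5′ end and the divergent 3′ end be seen. Capitals mark the seed.
miR-301a-3p: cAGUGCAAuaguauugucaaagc
miR-454-3p: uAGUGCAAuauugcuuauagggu
miR-130b-3p: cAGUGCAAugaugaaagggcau
miR-301b-3p: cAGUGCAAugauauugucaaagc
miR-3666: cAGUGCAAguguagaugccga
miR-4295: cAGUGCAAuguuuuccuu

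The seed AGUGCAA was found in these 6 of the 2370 distinct mature miRNA names of the table. No sequence was matched for miR-130a-3p, so its seed was not read here. Read position by position from the 5′ end, miR-301a-3p and miR-301b-3p were identical at 21 of 23 bases and differed by A10G and G11A, positions counted from 1 at the 5′ end with the base of miR-301a-3p first. MiR-130b-3p shared its first 12 bases with miR-301b-3p and its first 9 with miR-301a-3p. MiR-454-3p differed from both already at its first base, and was identical to miR-301a-3p at 13 of 23 bases. How far the probes of these near-identical miRNAs cross-hybridize was not tested.

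The genes lie at 3 loci in GRCh38.p14. MiR-301a-3p (chr17:59151149-59151171, minus strand) and miR-454-3p (chr17:59137787-59137809, minus strand) both lie within the span of SKA2, which encodes a spindle and kinetochore protein, and their hairpin genes are 13263 bases apart. MiR-130b-3p (chr22:21653354-21653375, plus strand) lies next to miR-301b-3p (chr22:21653025-21653047, plus strand), with 245 bases between the hairpin genes, inside the transcribed pseudogene LOC107985532. The MIR130A gene (chr11:57641198-57641286) lies inside the long non-coding RNA gene MIR130AHG.

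The family's signals were read against the background of each array. Spots named BLANK (320 blanks per array) averaged 81.0 units untreated and 66.2 with luteolin after trimming, with SDs of 1.48 and 0.591. The 32 Negative Control spots spread wider. They ran from 78.8 to 93.7 units on the untreated array (median 84.7) and from 64.5 to 69.4 on the luteolin array (median 67.4), and the widest kind was Negative Control 1 on the untreated array, at 83.2 to 93.7. The brightest Negative Control spot of an array is called its ceiling below. The background was thus lower and tighter on the luteolin array, and on the authors' scale, explained below, the ceiling stood at 38.7 untreated and 14.9 with luteolin. Of the epithelial and luminal markers fixed for a check of the label (miR-200b-3p, miR-200c-3p, miR-141-3p, miR-375, miR-148a-3p and miR-182-5p), 6 of 6 lay above the ceiling on both arrays. Of the 10 basal, stromal, muscle, endothelial, blood and liver markers found by name on the array, 1 did so, miR-451a, on both arrays; the part of other cells in the family's signals was not tested.

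The first question was whether the family could be measured above background at all. On the luteolin array 4 of 4 members lay above the ceiling, where 23.1% of all 2565 miRNAs did, and on the untreated array 1 of 4 did, miR-130b-3p, where 12.1% of all did. That member was also the 1 of 4 above the ceiling on both arrays (12.1% of all), and the other 3 were above it with luteolin alone (11.0% of all). The ceiling leaves out the 85 spots named No Probe, of which 4 were brighter than it on each array. With the brightest of these as the limit, 175 and 179 units, 0 of 4 members passed on either array and no bound would hold. On the authors' listing rule, a raw signal more than 2 SD above the blank mean, 4 members were listed on the luteolin array (38.4% of all miRNAs) and 3 on the untreated array (31.6% of all), and those 3 were listed on both (27.3% of all). MiR-454-3p was the member not listed on the untreated array.

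**Figure D1:**
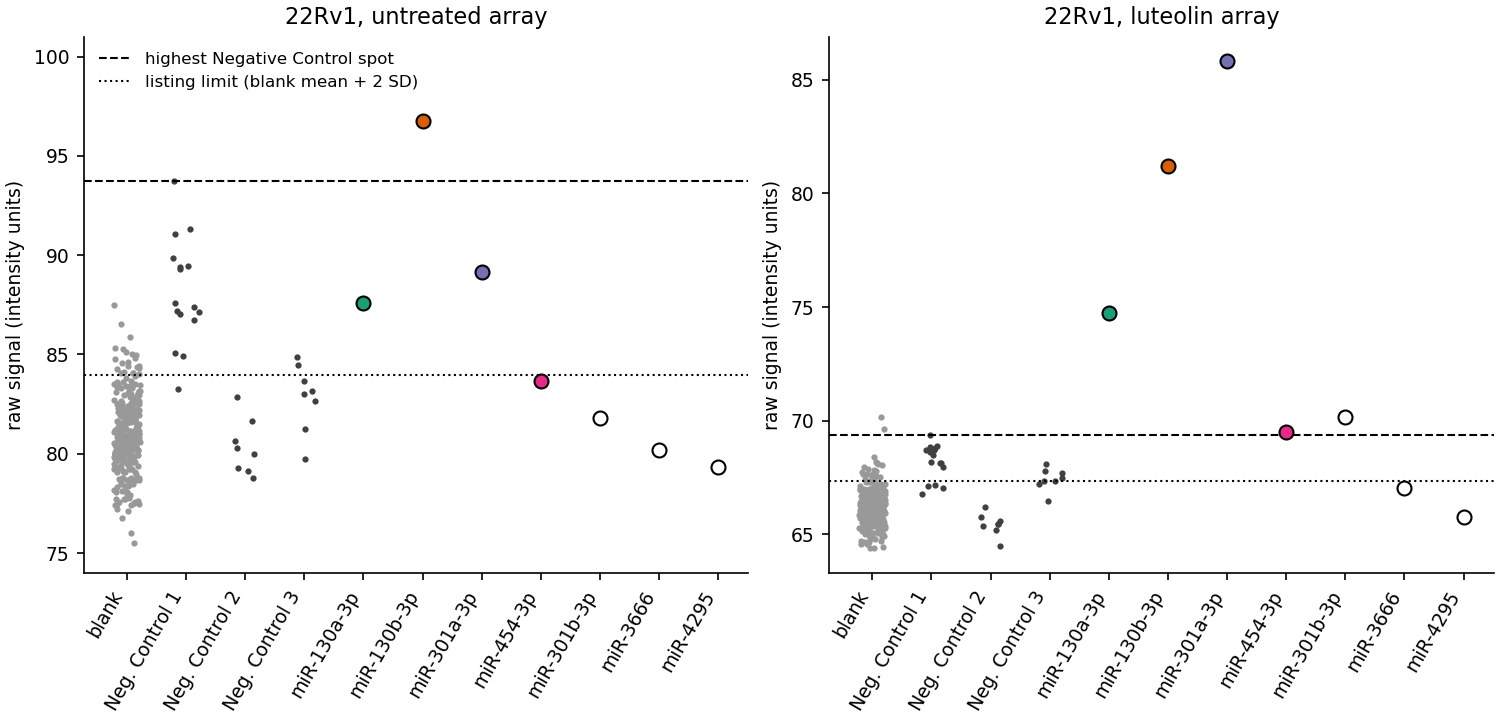
Raw signal in intensity units (y axis) of blank spots, the 3 kinds of Negative Control spots, the 4 members (filled circles) and the 3 other miRNAs of the same seed (open circles), on the untreated array (left) and the luteolin array (right). The dashed line is the highest Negative Control spot, at 93.7 and 69.4 units, and the dotted line the listing limit. The y axes differ and do not start at 0. On the left only miR-130b-3p lies above the dashed line, while on the right all 4 members and miR-301b-3p do, miR-454-3p by 0.097 units.

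The miRNA hsa-miR-301a-3p (MIMAT0000688), reported in other cancers to repress NKRF, an inhibitor of NF-κB, had a raw signal of 89.1 units on the untreated array and 85.8 on the luteolin array. On the untreated array this lay inside the range of Negative Control 1, with 7 of its 16 spots higher, although above every spot of Negative Control 2 and Negative Control 3. On the luteolin array it lay 16.4 units above the ceiling, the widest margin of the 4 members. With the blank mean subtracted the signal was 8.15 units without luteolin and 19.7 with it. That is a log2 ratio of 1.27 before any normalization, where the median of the 701 miRNAs listed on both arrays was -0.61.

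On the authors' scale the blank-subtracted signal is multiplied by 1 factor per array, and the median log2 ratio of all miRNAs listed on both arrays is then 0. There miR-301a-3p stood at 24.7 untreated and 91.1 with luteolin. The listed ratio was 3.68-fold, a log2 ratio of 1.88 ± 0.30, on this scale the 11th highest of 701 miRNAs listed on both arrays. That rank changed with the background method, as set out below. The error grew to ± 0.74 when the SD of the Negative Control spots replaced that of the blanks. Because the untreated signal lay within the Negative Control range, its level there is only bounded. The untreated ceiling, 38.7 on the authors' scale, is used as the floor for such ratios, and over that floor miR-301a-3p was at least 2.35-fold higher with luteolin. Among the 282 miRNAs that cleared the ceiling with luteolin alone, 1.77% had a bound of at least 2-fold, and 1 of the 3 members in this class did, miR-301a-3p. The class was defined by these same signals and the members were chosen with earlier results known, so these shares are a description only. The bound of miR-301a-3p assumes the authors' scaling and was 2.03 with the luteolin level lowered by 2 SE, and 1.87 with the floor at the Negative Control mean plus 3 SD.

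The miRNA hsa-miR-130a-3p (MIMAT0000425), known in endothelial cells for repressing the antiangiogenic homeobox genes GAX and HOXA5 and reported in prostate cancer cells to dampen androgen receptor signalling, read 87.6 units untreated and 74.7 with luteolin. As for miR-301a-3p, 7 of 16 Negative Control 1 spots and 0 of the other 16 were brighter on the untreated array, and none of 32 on the luteolin array. The blank-subtracted signal was 6.63 and 8.58 units, and the authors' scale gave 20.1 and 39.7. The listed ratio of 1.97-fold (log2 0.98 ± 0.37, or ± 0.92 with the Negative Control SD) lay just below 2-fold. Over the floor of 38.7 miR-130a-3p was at least 1.03-fold higher. Of the 3 members in that class 2 had a bound over 1-fold, as did 19.9% of the 282 miRNAs, again as a description only. The bound of miR-130a-3p did not survive 2 of the settings: it fell under 1-fold with the luteolin level lowered by 2 SE (0.836) and with the floor at the Negative Control mean plus 3 SD (0.815). A difference of miR-130a-3p was thus not separable from the error of the bound.

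The miRNA hsa-miR-130b-3p (MIMAT0000691), reported to repress the p53-induced gene TP53INP1, was the member measured on both arrays, at 96.8 units untreated and 81.2 with luteolin. It lay 3.02 units above the untreated ceiling and 11.8 units above that of the luteolin array. It stayed below the Negative Control mean plus 3 SD of the untreated array, 97.0 units. The blank-subtracted signals were nearly equal, 15.8 and 15.1 units, and the authors' scale turned them into 47.9 and 69.8. The resulting ratio was 1.46-fold (log2 0.54 ± 0.20, or ± 0.42 with the Negative Control SD), below 2-fold and 91st among the 310 miRNAs that cleared the ceiling of both arrays, of which 52.3% had a log2 ratio above 0 and 18.4% were at least 2-fold higher. With no normalization between the arrays the log2 ratio was -0.066 on blank-subtracted signals and -0.073 after normexp with an offset of 50. The medians of the 701 miRNAs listed on both arrays were lower still in these settings, -0.61 and -0.13, and relative to them miR-130b-3p stood at 0.54 and 0.060. The 2 miRNAs with the log2 ratio nearest to it, among the other 309 of that set, were miR-93-5p at 0.55 ± 0.14 and miR-4443 at 0.55 ± 0.14. With 1 array per condition this likeness rests on a single ratio.

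The miRNA hsa-miR-454-3p (MIMAT0003885), the neighbour of miR-301a-3p within SKA2, read 83.6 units untreated and 69.5 with luteolin. On the untreated array 18 of 32 Negative Control spots and 25 of 320 blanks were brighter, and it missed the listing limit of 84.0 units. On the luteolin array it passed the ceiling by 0.097 units, less than the blank SD there of 0.591, and 2 of 320 blanks were brighter. The authors' scale lists it at 15.4 on the luteolin array. That is below the floor of 38.7, so no fold difference is defined, and a difference in miR-454-3p was not detectable on these arrays.

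Set side by side, miR-301a-3p was at least 2.35-fold higher with luteolin on the authors' scale. That bound fell to 1.87-fold with the floor at the Negative Control mean plus 3 SD. It was not computed without normalization between the arrays. The bound of miR-130a-3p (1.03-fold) was within its error. MiR-130b-3p stood at 1.46-fold on the authors' scale with a direction that depended on normalization, and miR-454-3p had no defined ratio. Differences between members were not tested. The median log2 ratio of the 3 members listed on both arrays was 0.98, with 3 of 3 above 0 where 49.9% of the 701 miRNAs were. That median is the listed ratio of miR-130a-3p, and 2 of the 3 ratios rest on untreated signals inside the Negative Control range, so these counts describe listed values only. Of the 3, 1 was listed as at least 2-fold higher, where 13.4% of the 701 were, and 0 as at least 2-fold lower. Of the 1 member above both ceilings, 0 were at least 2-fold higher.

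**Figure D2:**
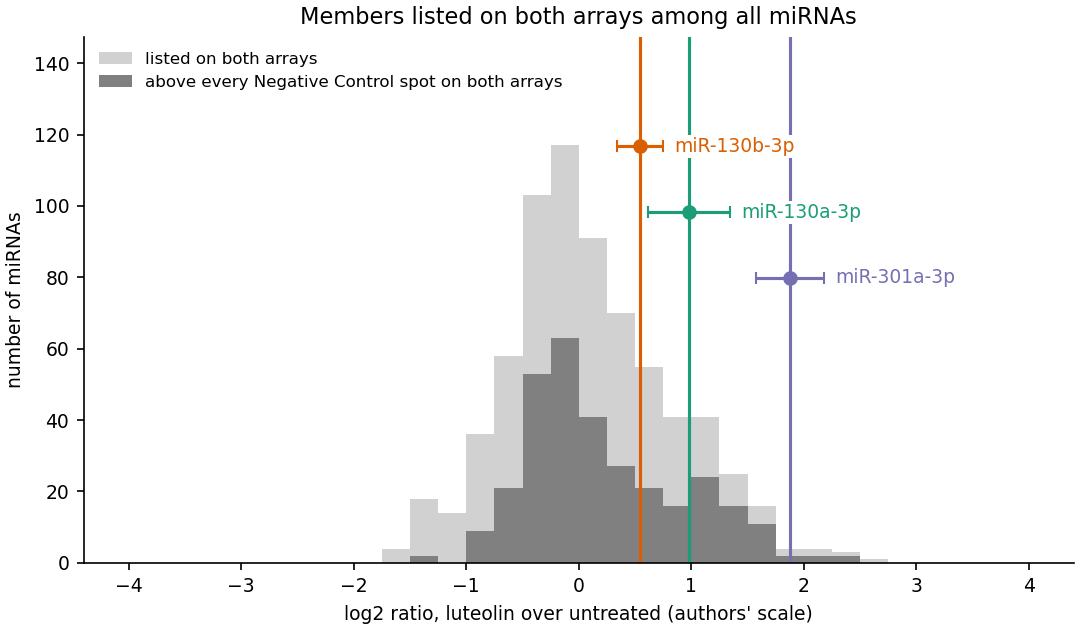
Number of miRNAs (y axis) by log2 ratio of luteolin over untreated on the authors' scale (x axis), for the 701 miRNAs listed on both arrays (light) and the 310 above both ceilings (dark). Coloured lines mark the 3 members listed on both arrays, at 0.54, 0.98 and 1.88, and bars give the within-array SE. All 3 lie right of the median of 0, and only miR-130b-3p belongs to the dark group.

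The ratios depended on how background and scale were treated. On the offset scale (normexp background correction with 50 units added, then quantile normalization), which pulls dim signals towards a ratio of 1, the log2 ratios were 0.33 for miR-301a-3p, 0.11 for miR-130b-3p and 0.099 for miR-130a-3p, against a median of -0.016 for the same 701 miRNAs. With blank subtraction, the scaling alone moved the median of the 701 from -0.61 (no normalization) to 0.81 (scaled to the spike-in controls), and it moved each member by the same amount. Relative to that median, miR-301a-3p stayed at 1.88, miR-130a-3p at 0.98 and miR-130b-3p at 0.54 in all of these. The rank of miR-301a-3p stayed 11th of 701 under these scalings, which cannot change ranks, and was 10th with the untrimmed blank median. It was 47th on the offset scale, 51st with cyclic loess and 57th with an offset of 50 and no normalization. With an offset of 16 it was 31st, and with the Negative Control mean subtracted 32nd of 637. The ratio of miR-301a-3p was above 0 in all 11 alternatives. These alternatives are not independent of each other, since several differ by 1 factor per array or not at all. Each takes the untreated raw signal of miR-301a-3p as a measured value, although it lay inside the Negative Control range.

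**Figure D3:**
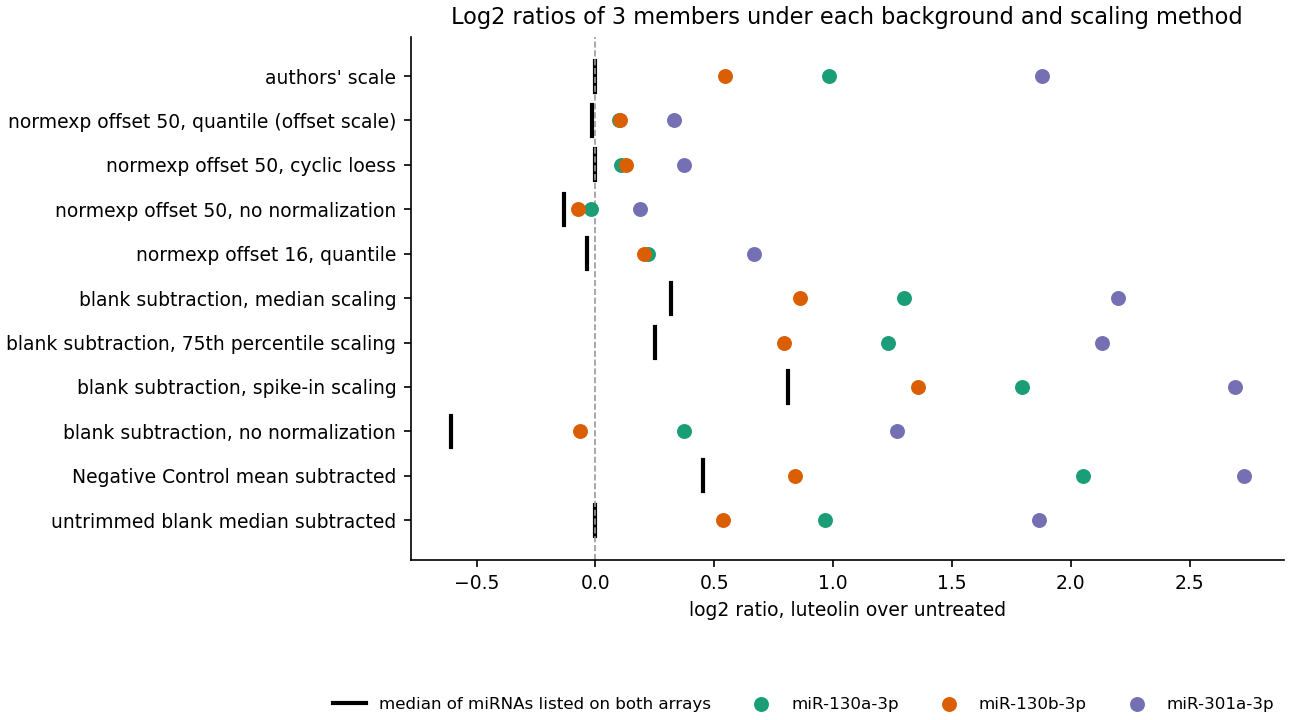
Log2 ratio of luteolin over untreated (x axis) for miR-130a-3p, miR-130b-3p and miR-301a-3p under each background and scaling method (y axis). Black ticks give the median of the miRNAs listed on both arrays. MiR-301a-3p lies right of 0 in each row, from 0.19 to 2.73, while miR-130b-3p lies left of 0 in both rows without normalization and miR-130a-3p in that with normexp.

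Among the 3 other miRNAs with the seed AGUGCAA, miR-301b-3p (MIMAT0004958) read 81.8 units untreated and 70.2 with luteolin. It was not listed on the untreated array, where 23 of 32 Negative Control spots were brighter, and it lay 0.788 units above the ceiling of the luteolin array, where 0 of 320 blanks were brighter. At 18.6 on the authors' scale it too stayed below the floor of 38.7, so no fold difference is defined. MiR-3666 read 80.2 and 67.0 units and miR-4295 read 79.4 and 65.8, and neither was listed on either array.

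The partner arms, cut from the other side of the same hairpins and usually degraded, gave no listed signal. Of the 5 arms (miR-130a-5p, miR-130b-5p, miR-301a-5p, miR-301b-5p and miR-454-5p), 0 were listed on either array. Their raw signals ran from 78.5 to 82.6 units untreated and from 65.9 to 66.4 with luteolin, with at least 23 of the 32 Negative Control spots brighter in each case. The 4 members are 3p arms by choice of name, and no partner arm gave a check of their ratios.

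A further set of miRNAs carries a seed shifted by 1 base, so that part of the family's seed is kept. It is shown to set the members beside miRNAs of similar 5′ sequence. Capitals again mark bases 2 to 8.
miR-19a-3p: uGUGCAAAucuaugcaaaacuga
miR-19b-3p: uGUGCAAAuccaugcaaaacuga
miR-148a-3p: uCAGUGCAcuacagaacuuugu
miR-148b-3p: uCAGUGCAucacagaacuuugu
miR-152-3p: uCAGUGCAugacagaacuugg

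MiR-19a-3p and miR-19b-3p come from clusters that MYC induces, and miR-148a-3p, miR-148b-3p and miR-152-3p repress the DNA methyltransferase DNMT1. Of the 3 above both ceilings (miR-19a-3p, miR-19b-3p and miR-148a-3p), 3 were at least 2-fold higher with luteolin, as were 18.4% of the 310 miRNAs of that kind. Listed values were at least 2-fold higher for 5 of 5 (13.4% of the 701), but 2 of these rest on untreated signals inside the Negative Control range. On the offset scale 5 of 5 were above 0 and 0 at least 2-fold higher, and with an offset of 50 and no normalization 4 of 5 were above 0. MiR-19a-3p read 97.6 and 110.4 raw units (log2 2.02 ± 0.19), miR-19b-3p 168 and 217 units (1.41 ± 0.14), and miR-148a-3p 96.8 and 117 units (2.29 ± 0.19). With the Negative Control SD these errors were ± 0.38, ± 0.15 and ± 0.40. Like miR-130b-3p, miR-148a-3p stayed below the Negative Control mean plus 3 SD of the untreated array, 97.0 units. MiR-148b-3p read 85.5 and 77.2 units and lay inside the Negative Control range on the untreated array, as miR-301a-3p did, and was at least 1.32-fold higher. MiR-152-3p read 84.6 and 71.4 units and, like miR-454-3p and miR-301b-3p, stayed below the floor, so no ratio is defined. The set was known from earlier results of these data to hold high ratios, and its values are given as a description; no difference between it and the members was tested.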

How the data were processed

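The authors deposited 1 file of linear scanner intensity per array. Its columns, per the file headers, hold the raw signal, the background-subtracted signal and a globally normalized one, plus an adjusted one for luteolin. From the values, the authors subtracted the blank mean (5% trimmed at each end), listed a value where the raw signal exceeded it by more than 2 SD, and multiplied by 3.03 (untreated) and 5.77 (luteolin), which sets the median of listed miRNAs at 25. The adjustment multiplies luteolin values by 0.803. No source used here states its basis, but with it the median log2 ratio of the 701 miRNAs listed on both arrays is 0. The deposited value table holds the same intensity values.

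The authors' scale was the main setting, because an offset of 50 pulls ratios of dim signals towards 1; the offset scale (limma 3.58.1, R 4.3.3) was an alternative. SE combined the blank SD with the coefficient of variation of 5 bright repeated control probes, 7.34% and 6.23%. A bound divides the luteolin level by that of the brightest untreated Negative Control spot. Python 3.11.15, numpy 2.4.6 and pandas 2.3.3 were used, and ratio computation was tested on simulated data. The simulated fold differences were placed only in miRNAs brighter on the untreated array than miR-301a-3p, miR-130a-3p and miR-454-3p. Bounds were not simulated. All members and fixed lists are named. Members and lists were chosen with earlier results of these data known. The markers miR-203a and miR-1 were not found under those names.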

Additional observations from a re-analysis of the deposited data

How the results depend on the processing

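Log2 ratios follow in the order miR-130a-3p, miR-130b-3p, miR-301a-3p and the median of the 3. They were 0.099, 0.11, 0.33 and 0.11 on the offset scale, 0.11, 0.13, 0.37 and 0.13 with cyclic loess, and 0.22, 0.20, 0.66 and 0.22 with an offset of 16. With an offset of 50 and no normalization, they were -0.020, -0.073, 0.19 and -0.020. The number of listed members at least 2-fold higher was 0 in these 4. Spike-in scaling gave 1.79, 1.36, 2.69 and 1.79, with 3 listed members at least 2-fold higher and 1 of the 1 above both ceilings. Blank subtraction with no normalization gave 0.37, -0.066, 1.27 and 0.37. Subtracting the Negative Control mean gave 2.05, 0.84, 2.73 and 2.05, with 2 listed members at least 2-fold higher, as with median scaling, where miR-130b-3p stood at 0.86 and miR-301a-3p at 2.20, and with 75th percentile scaling, where miR-130b-3p stood at 0.79. The other values of these settings, the untrimmed blank median and the deposited value table moved by less than the within-array SE.

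On the untreated array 3 members exceeded the blank mean plus 2 SD, 0 the Negative Control mean plus 3 SD, 4 the highest spot of Negative Control 2 and 3 that of Negative Control 3. On the luteolin array each of these limits gave 4, except the Negative Control mean plus 3 SD, which gave 3. A limit added after seeing the data, the highest of 85 spots named No Probe, gave 0 on both arrays; 4 of those spots were brighter than every Negative Control. The bound of miR-301a-3p was 1.87 with the floor at the Negative Control mean plus 3 SD, 3.68 with Negative Control 2 or Negative Control 3 alone, where its own untreated signal became the floor, and 2.93 with median scaling. That of miR-130a-3p was 0.815, 1.97 with either of those controls, 1.28 with median scaling, and 0.836 with the luteolin level lowered by 2 SE. Where no value shows it, the cause was not tested. The place of miR-301a-3p and miR-130a-3p inside the untreated control range thus rests on Negative Control 1. No paired analysis was possible because each condition had 1 array.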
